A study of Homo sapiens with 11 samples.

Results

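BASP1 is a transcriptional co-repressor and membrane protein that the study follows in KMT2A-rearranged leukemia, and the transcript levels of BASP1, of its relatives MARCKS, MARCKSL1 and GAP43, and of its partner WT1 were examined in MOLM-13 cells. The 5 genes were taken by symbol from a table of raw counts for 38557 genes, and 4 of the 5 passed the filter for testing together with the other genes, 14683 in all. GAP43 did not pass. MOLM-13 is a human acute myeloid leukemia line with a KMT2A fusion, and a single line served for all libraries. Cells had been kept for 72 h in DMSO (the diluent, 4 libraries), in MI-503 at 1 µM (4 libraries) or in both MI-503 at 1 µM and PR-957 at 100 nM (3 libraries, replicates 1, 2 and 4). MI-503 blocks the binding of Menin to KMT2A, and PR-957, also called ONX-0914, blocks PSMB8, a catalytic subunit of the immunoproteasome. The third group is called the combination. No library analysed here received PR-957 without MI-503, so the effect of adding it is read from the combination against MI-503.

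BASP1, MARCKS, MARCKSL1 and GAP43 are abundant in the growing nerve cell and are found in many other cells. They are acidic, mostly unfolded proteins that sit on the inner face of the plasma membrane, held there by a lipid (myristate on BASP1, MARCKS and MARCKSL1, palmitate on GAP43) and by a basic stretch that binds acidic phospholipids. Calmodulin and phosphorylation by protein kinase C release that stretch, which frees the phospholipid and the actin cytoskeleton beneath. BASP1 also enters the nucleus, where it binds WT1, a zinc finger transcription factor of kidney, gonad and blood progenitors, and turns WT1 from an activator into a repressor. WT1 is often highly expressed in acute myeloid leukemia.

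The sequences below show the start sites of MARCKS, MARCKSL1 and WT1, whose levels changed. Positions are on hg38 and letters run 5′ to 3′ on the strand of the gene. The RefSeq window (GRCh38.p14, 250 bases before to 50 after the start) is shown for each, with capitals on GC boxes (GGGCGG, on either strand) and CCAAT boxes (CCAAT, on either strand).
MARCKS (chr6:113857095-113857394, + strand): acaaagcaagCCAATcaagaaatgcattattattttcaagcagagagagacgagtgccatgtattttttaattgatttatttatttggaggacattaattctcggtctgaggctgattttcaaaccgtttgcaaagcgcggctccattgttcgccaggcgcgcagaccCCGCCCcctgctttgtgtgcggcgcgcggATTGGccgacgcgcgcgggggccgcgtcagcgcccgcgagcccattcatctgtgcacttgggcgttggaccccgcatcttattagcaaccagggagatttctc
MARCKSL1 (chr1:32336184-32336483, − strand): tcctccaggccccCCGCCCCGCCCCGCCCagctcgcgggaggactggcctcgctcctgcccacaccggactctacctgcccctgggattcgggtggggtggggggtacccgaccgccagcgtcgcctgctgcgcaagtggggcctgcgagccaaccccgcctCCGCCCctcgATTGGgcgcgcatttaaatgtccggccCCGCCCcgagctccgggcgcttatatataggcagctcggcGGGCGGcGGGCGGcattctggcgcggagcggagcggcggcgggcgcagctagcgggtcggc
WT1 (chr11:32435490-32435789, − strand): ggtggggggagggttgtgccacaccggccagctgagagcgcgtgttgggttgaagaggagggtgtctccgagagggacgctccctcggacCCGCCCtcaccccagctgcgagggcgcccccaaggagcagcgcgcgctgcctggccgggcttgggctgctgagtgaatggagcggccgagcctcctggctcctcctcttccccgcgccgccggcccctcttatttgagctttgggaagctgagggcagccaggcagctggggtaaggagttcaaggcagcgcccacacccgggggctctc

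The windows were rich in CpG. Of 35116 RefSeq windows of this length, 45.0% held a GC box and 34.6% a CCAAT box, the median GC content was 58.7% and the median number of CpG was 14. The MARCKSL1 window had 75.0% GC, 38 CpG, 7 GC boxes and 1 CCAAT box. MARCKS had 53.0% GC, 25 CpG, 1 GC box and 2 CCAAT boxes, and WT1, for which RefSeq lists 4 starts and the one of the count annotation is shown, had 70.0% GC, 21 CpG and 1 GC box. The element GCGNGGGCG, which WT1 and its relative EGR1 can bind, was searched on both strands and occurred in 9.43% of windows. It occurred 1 time in the WT1 window, 143 bases before the start, and its letters were not in the windows of MARCKS and MARCKSL1.

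In the count annotation, BASP1 spans chr5:17216823-17276845 (+ strand, 3 exon blocks, 1893 exon bases). Its first block, 75 bases or 3.96% of its exon length, lies within an exon of the antisense gene BASP1-AS1. MARCKS spans chr6:113857345-113863475 (+ strand, 2 blocks, 4296 bases) and MARCKSL1 chr1:32333839-32336233 (− strand, 2 blocks, 1546 bases), and neither shares exon bases with another gene. GAP43 spans chr3:115623510-115721485 (+ strand, 4 blocks, 3561 bases). WT1 spans chr11:32387775-32435539 (− strand, 12 blocks, 3727 bases) and shares 22 bases with the antisense gene WT1-AS (chr11:32435518-32458769, + strand). Fragments were counted without regard to strand, so reads from a gene and its antisense partner cannot be told apart, and fragments that touched exons of both were left out.

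Total counts ran from 18.9 to 41.2 M per library. The chi-square of a replicate pair, divided by its degrees of freedom, was 1.71 to 5.97 within DMSO and MI-503. It was 4.59 for replicates 2 and 4 of the combination, but 19.4 and 33.3 for the pairs with its replicate 1. This library stood apart, and changes without it are given below. The labels do not say that replicates came from separate cultures, and p-values measure the spread between these libraries. Levels below are CPM, the counts of a gene relative to the library total after scaling by TMM factors, as mean ± SD. Changes are log2 fold changes from edgeR's quasi-likelihood test over all 14683 genes, with the standard error (SE). An adjusted p under 0.05 is written as a call.

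The transcript of BASP1 rose 4.17-fold with MI-503 and was slightly lower when PR-957 was added. BASP1 was at 4.39, 5.60, 4.12 and 3.89 CPM in DMSO replicates 1 to 4, which are 130, 122, 87 and 82 counts. With MI-503 it was at 18.2, 18.1, 19.2 and 19.6 CPM. In the combination it was at 16.6, 13.2 and 14.6 CPM. The 3 groups did not overlap, with every MI-503 library above every combination library and both far above DMSO. The group means were 4.50 ± 0.762 (n = 4), 18.8 ± 0.735 (n = 4) and 14.8 ± 1.69 CPM (n = 3). MI-503 against DMSO gave a log2 change of 2.06 (SE 0.10, edgeR adjusted p = 1.22e-10), a comparison in which 51.4% of all tested genes were called, 4.22% were called and at least 2-fold higher, and 50.3% had groups that did not overlap. BASP1 ranked 104 of 14683 by rise. The combination against DMSO gave 1.73 (SE 0.11, edgeR adjusted p = 5.48e-10), where 64.5% of genes were called, 8.54% were called and at least 2-fold higher, and 60.5% had groups that did not overlap. Against MI-503 alone, BASP1 fell by 0.33 on the log2 scale in the combination (SE 0.10, 95% interval −0.53 to −0.13, edgeR adjusted p = 0.00957), where 47.4% of genes were called and 47.6% had groups that did not overlap. The fall was 1.25-fold and ranked 2360 of 14683. Without combination replicate 1 the changes were 1.66 against DMSO and −0.45 against MI-503. In libraries made from many cells, fewer cells of a type and less RNA per cell cannot be told apart.

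**Figure D1:**
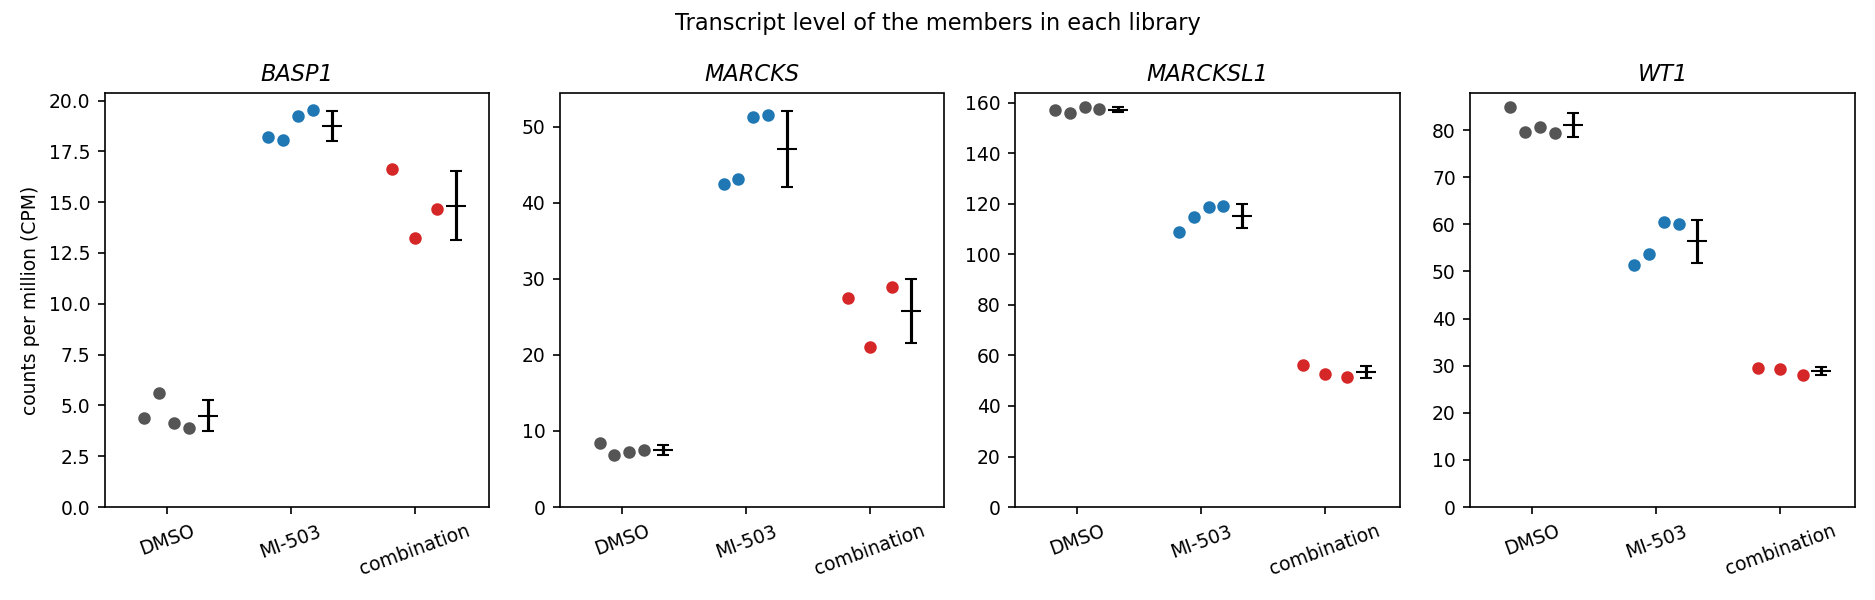
Transcript level of BASP1, MARCKS, MARCKSL1 and WT1 (y axis, CPM on TMM-scaled totals, from 0) in each of the 11 libraries by group (x axis). Points are libraries and the bar beside them is the mean with SD. In BASP1 and MARCKS the DMSO libraries lie lowest and MI-503 highest, and in MARCKSL1 and WT1 the levels step down from DMSO to MI-503 to the combination.

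MARCKS, the founding member of the family and a major substrate of protein kinase C, followed the same order of groups with wider steps. It was at 8.47, 6.84, 7.20 and 7.44 CPM in DMSO, at 42.4, 43.1, 51.3 and 51.5 CPM with MI-503, and at 27.4, 21.1 and 29.0 CPM in the combination. No 2 groups overlapped, and the combination lay between the others. The means were 7.49 ± 0.697, 47.1 ± 5.02 and 25.8 ± 4.19 CPM. With MI-503 it rose 6.24-fold, a log2 change of 2.64 (SE 0.11, edgeR adjusted p = 9.84e-12), and ranked 42 of 14683 by rise. The combination was 3.45-fold above DMSO (log2 change 1.79, SE 0.11, edgeR adjusted p = 5.53e-10). Between the combination and MI-503 alone it fell by 0.86 on the log2 scale (SE 0.10, edgeR adjusted p = 2.49e-06), or 1.81-fold, beside 1.25-fold for BASP1. Without combination replicate 1 the changes were 1.76 and −0.92.

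MARCKSL1, the smaller relative with the same kind of basic stretch, went the other way. Its levels were 157, 156, 158 and 157 CPM in DMSO, 109, 115, 119 and 119 CPM with MI-503, and 56.2, 52.8 and 51.6 CPM in the combination. The DMSO libraries lay within 156 to 158 CPM, and the groups were far apart. With MI-503 it had a log2 change of −0.45 (SE 0.04, edgeR adjusted p = 1.38e-07), from 157 ± 0.988 to 115 ± 4.80 CPM. In the combination it was at 53.5 ± 2.39 CPM, 2.93-fold below DMSO (log2 change −1.55, SE 0.05, edgeR adjusted p = 1.44e-13) and 2.15-fold below MI-503 (log2 change −1.10, SE 0.05, edgeR adjusted p = 1.80e-11). In the last comparison 1.4% of tested genes were called and at least 2-fold lower, and MARCKSL1 ranked 170 of 14683 by fall. Without combination replicate 1 the changes were −1.57 against DMSO and −1.17 against MI-503.

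GAP43, the growth cone protein of neurons, was barely counted. The 4 DMSO libraries had 0 counts, MI-503 had 2 counts in replicate 4 and 0 in the others, and the combination had 1 count in replicate 4 and 0 in the others. All groups were at or under 3 counts, so no fold change is given.

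WT1 was lower with MI-503 and lower again in the combination. It was at 84.9, 79.6, 80.6 and 79.3 CPM in DMSO, at 51.3, 53.8, 60.4 and 60.1 CPM with MI-503, and at 29.5, 29.3 and 28.0 CPM in the combination. The 3 groups did not overlap. MI-503 against DMSO gave a log2 change of −0.53 (SE 0.05, edgeR adjusted p = 4.17e-07). The combination against DMSO gave −1.49 (SE 0.06, edgeR adjusted p = 4.15e-12), a 2.80-fold fall, and against MI-503 it gave −0.96 (SE 0.06, edgeR adjusted p = 2.22e-09), a 1.95-fold fall. Falls of at least 2-fold were called in 3.34% of genes for the combination against DMSO. Without combination replicate 1 WT1 changed by −1.49 against DMSO, and its fall against MI-503 was still called (edgeR adjusted p = 1.86e-11).

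The antisense gene WT1-AS, which starts opposite the first exon of WT1, had means of 25.4 ± 2.66, 21.0 ± 0.483 and 10.0 ± 1.43 CPM in DMSO, MI-503 and the combination. Its fall with MI-503 was small (log2 change −0.27, SE 0.08, edgeR adjusted p = 0.0109) and was not called without DMSO replicate 3 (−0.21, edgeR adjusted p = 0.0505). In the combination it fell by 1.33 on the log2 scale against DMSO (SE 0.10, edgeR adjusted p = 2.47e-09) and by 1.06 against MI-503 (SE 0.10, edgeR adjusted p = 1.63e-07). BASP1-AS1 had 0, 3 and 4 counts in all in the 3 groups, and BASP1P1, a copy of BASP1 on chromosome 13, had 0.

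**Figure D2:**
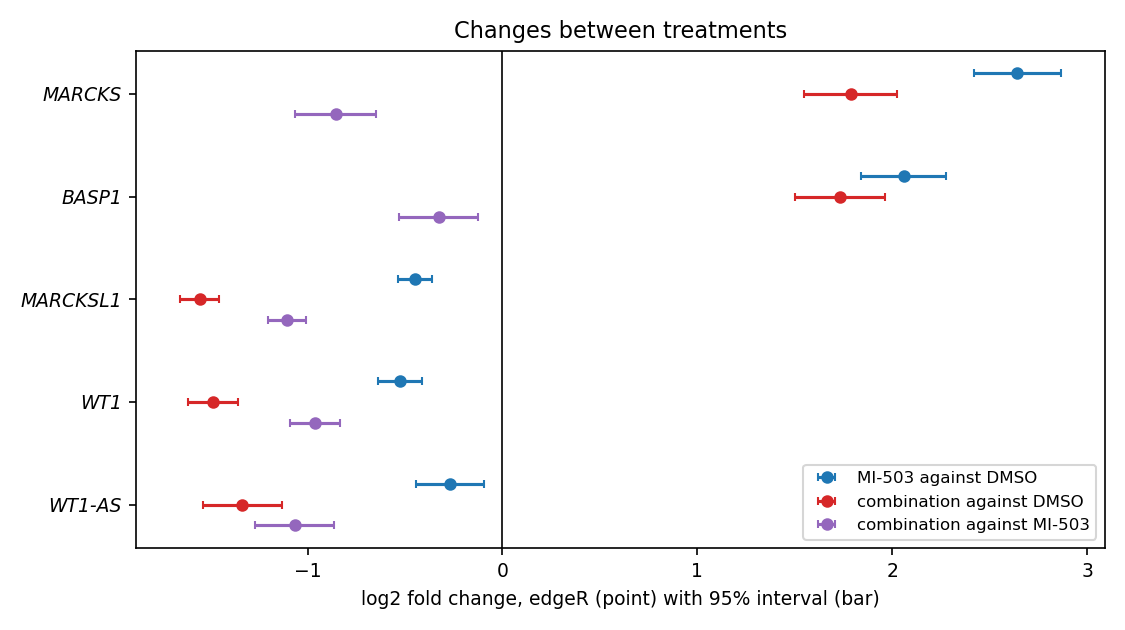
Log2 fold change (x axis, edgeR) of each gene (y axis) in the 3 comparisons, given by colour. Points are estimates and bars 95% intervals. MARCKS and BASP1 lie to the right of 0 in both comparisons with DMSO, MARCKSL1, WT1 and WT1-AS lie to the left, and all 5 genes lie to the left for the combination against MI-503.

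Levels were set side by side per kilobase of exon, since the genes differ in length. In DMSO, MARCKSL1 was highest at 102 ± 0.639 CPM per kilobase, followed by WT1 at 21.8 ± 0.697, BASP1 at 2.38 ± 0.403 and MARCKS at 1.74 ± 0.162. With MI-503, MARCKSL1 was at 74.5 ± 3.10, WT1 at 15.1 ± 1.23 and BASP1 at 9.91 ± 0.388. MARCKS, from 9.87 upwards, then overlapped with BASP1, which ran from 9.54 to 10.3. In the combination MARCKSL1 was at 34.6 ± 1.54, BASP1 at 7.83 ± 0.895 and WT1 at 7.76 ± 0.220 CPM per kilobase, and BASP1 and WT1 could not be ordered, with ranges of 6.99 to 8.77 and 7.51 to 7.91. MARCKS followed at 6.01 ± 0.975.

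The make-up of the family changed with these shifts. The per-kilobase levels of BASP1, MARCKS, MARCKSL1 and GAP43 summed to 106 ± 0.371 in DMSO, 95.4 ± 4.52 with MI-503 and 48.5 ± 2.78 in the combination. BASP1 made up 2.25 ± 0.386% of the sum in DMSO, 10.4 ± 0.234% with MI-503 and 16.1 ± 0.928% in the combination. Its share was thus highest in the combination, where its own level was below that with MI-503, since MARCKSL1 fell more. MARCKSL1 held 96.1%, 78.1% and 71.5% of the sum, and MARCKS 1.65%, 11.5% and 12.4%.

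The ratio of WT1 to BASP1, both per kilobase, was 9.83, 7.22, 9.92 and 10.4 in DMSO replicates 1 to 4, with a mean of 9.33 ± 1.43. With MI-503 it was 1.43, 1.51, 1.60 and 1.56, a mean of 1.52 ± 0.0725. In the combination it was 0.902, 1.13 and 0.971, a mean of 0.999 ± 0.115, so that the 2 transcripts were about level. The groups did not overlap. These ratios are of transcripts, and the libraries do not measure either protein.

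**Figure D3:**
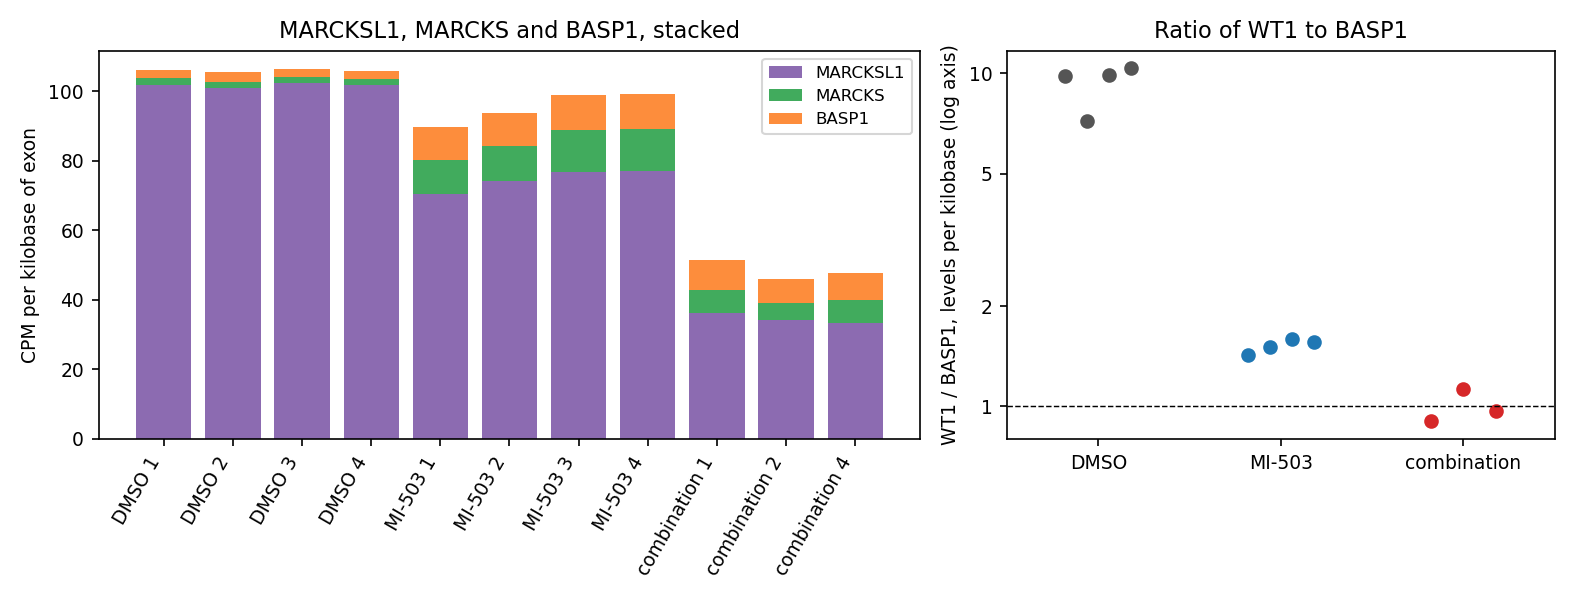
Left, stacked bars of the levels of MARCKSL1, MARCKS and BASP1 (y axis, CPM per kilobase of exon, from 0) in each library. Right, the ratio of WT1 to BASP1 per kilobase (log y axis) by group, 1 point per library, with a dashed line at 1, showing DMSO between 7.22 and 10.4 and the combination between 0.902 and 1.13.

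The genes whose pattern over the 11 libraries was most like each member were found by the root mean square (RMS) difference of centred log2 CPM, over 10038 other genes that averaged 5 CPM or more. The points share the same libraries and the same group steps, and the ranking is a description. For MARCKSL1 the nearest of all was WT1, and for WT1 the nearest was MARCKSL1, at an RMS difference of 0.0735. WT1 was followed by PHGDH, the first enzyme of serine synthesis (0.0784), LOC101929614 (0.0856) and the homeobox gene IRX5 (0.109). MARCKSL1 was followed by SYNPO2, an actin-binding protein (0.0958), LOC101929614 (0.110) and HPDL (0.130).

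Among the genes nearest to BASP1 were RASGRP4, an activator of Ras in myeloid cells (0.180), the adaptor PRAM1 (0.201) and the cytokine IL16 (0.209), with MARCKS in place 36 (0.326). Among those nearest to MARCKS were SUCNR1, the succinate receptor (0.229), the sorting receptor SORL1 (0.293) and MROCKI (0.326), with BASP1 in place 5. MROCKI is a long noncoding RNA gene at chr6:113868013-113873347 on the − strand, 4537 bases beyond the end of MARCKS. It was at 4.08, 3.77, 3.32 and 3.46 CPM in DMSO, at 14.1, 12.4, 15.3 and 14.8 CPM with MI-503, and at 8.30, 7.77 and 10.1 CPM in the combination. Since MROCKI was picked for its likeness to MARCKS, these levels are a description with no test. As strand was not used, transcription running on from one gene into the other cannot be told apart from the gene's own.

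**Figure D4:**
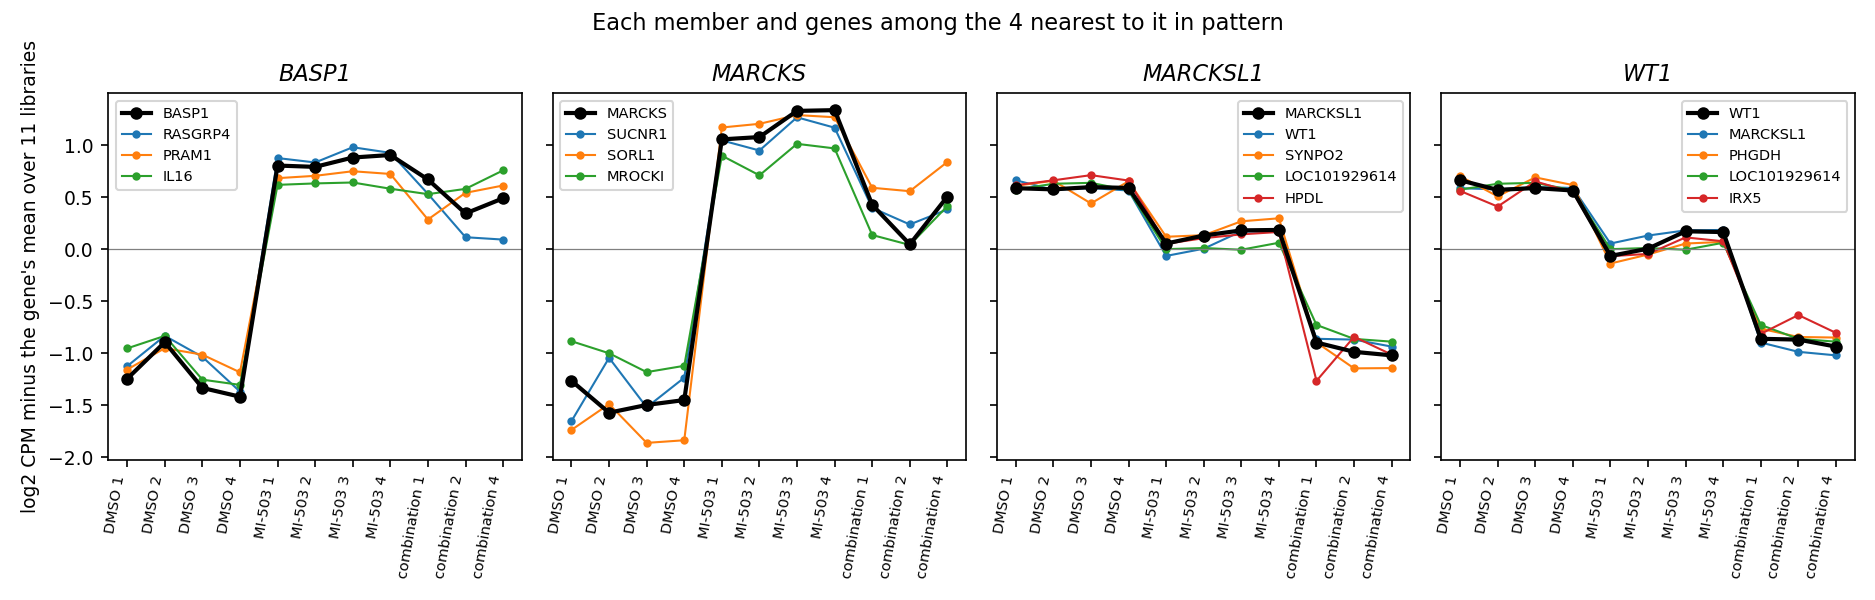
Log2 CPM minus the mean of the gene over the 11 libraries (y axis) for BASP1, MARCKS, MARCKSL1 and WT1 (black) and genes among the 4 nearest to each in pattern (colours), by library (x axis). Lines join the libraries of a gene for reading only. WT1 and MARCKSL1 run close together in both of their panels.

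The proteins that act on the family at the membrane were followed in a list of 32 genes, which holds the myristoyl transferases, calmodulins, protein kinases C, calcineurin subunits, kinases and phospholipases of the phosphoinositides, adducins and neurogranin. Of 31 tested, 8 rose and 9 fell with MI-503 (median log2 change −0.04, against −0.03 over all genes), beside 22.0% and 29.3% of all genes. Against DMSO, 12 rose and 11 fell in the combination (median 0.05, against 0.01), beside 31.7% and 32.8%. Against MI-503, 6 rose and 13 fell in the combination (median −0.13, against 0.00), beside 23.6% and 23.8%.

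Among the protein kinases C, PRKCB was at 135 CPM in DMSO and rose with MI-503 (log2 change 0.68, edgeR adjusted p = 1.38e-08). So did PRKCA (0.63, edgeR adjusted p = 9.05e-08) and PRKCZ (0.62, edgeR adjusted p = 0.00335), an atypical kinase at 2.23 CPM in DMSO. PRKCQ fell (−0.43, edgeR adjusted p = 0.00692) and fell further in the combination. The calmodulin genes CALM2 and CALM3, at 310 and 359 CPM in DMSO, were lower in the combination than with MI-503, by log2 changes of −0.48 and −0.51 (edgeR adjusted p = 7.44e-08 and 4.76e-06). NMT1, which attaches myristate to BASP1 and MARCKS, was lower with MI-503 (−0.16, edgeR adjusted p = 0.00228) and higher in the combination than with MI-503 (0.58, edgeR adjusted p = 1.29e-08). NRGN, or neurogranin, a calmodulin-binding relative of GAP43, rose with MI-503 (0.63, edgeR adjusted p = 8.36e-08) and fell by 1.01 on the log2 scale when PR-957 was added (edgeR adjusted p = 1.16e-09). ADD3, an adducin of the membrane skeleton, was higher in the combination than with MI-503 (0.66, edgeR adjusted p = 3.89e-08). PLCG1, a phospholipase that cuts the phosphoinositide which MARCKS holds, fell with MI-503 (−0.42, edgeR adjusted p = 2.53e-06).

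Nuclear proteins described to bind BASP1 or WT1 were followed in a list of 23 genes. Of 22 tested, 0 rose and 13 fell with MI-503 by edgeR (median log2 change −0.17, against −0.03 over all genes), which is 0% and 59.1% of the list beside 22.0% and 29.3% of all genes. DESeq2 and limma-voom called 0 higher as well. The number called lower ranged from 9 to 14 over the 19 alternatives. Among the named genes of these 13, AMER1 lost its call under 15 of the alternatives and PHB2 under 4. Calls of the genes not named were not followed singly. At an unadjusted p under 0.05 in edgeR, 0 were higher and 16 lower. In the combination 1 rose and 15 fell against DMSO (median −0.42, against 0.01), which is 4.55% and 68.2% beside 31.7% and 32.8% of all genes. The 1 higher gene became 0 without DMSO replicate 1 or 2, 2 without combination replicate 1 and 3 without combination replicate 4. Against MI-503, 2 rose and 13 fell in the combination (median −0.22, against 0.00), which is 9.09% and 59.1% beside 23.6% and 23.8%. These 2 higher genes became 1 with the replicate number as a block in the fit, and also when any 1 of MI-503 replicates 1, 2 and 3 or of combination replicates 2 and 4 was left out. PHB, or prohibitin, a BASP1 partner that recruits chromatin remodelling, was at 285 ± 7.51 CPM in DMSO, 206 ± 7.61 with MI-503 and 160 ± 13.1 in the combination. Its log2 changes were −0.47 with MI-503 (edgeR adjusted p = 5.53e-07) and −0.37 between the combination and MI-503 (edgeR adjusted p = 2.37e-05). SMARCA4, the motor of the BAF remodelling complex, and its subunit SMARCC1 fell in the combination against DMSO by 0.53 and 0.66 on the log2 scale (edgeR adjusted p = 1.82e-08 and 2.63e-10). The deacetylase HDAC2 fell by 0.53 in the same comparison (edgeR adjusted p = 1.40e-08), as did BMI1, a polycomb subunit, by 0.78 (edgeR adjusted p = 8.43e-08). AMER1, a tumor suppressor that binds WT1, fell by 0.95 (edgeR adjusted p = 3.73e-09). PHB2, a partner of prohibitin, fell by 0.29 (edgeR adjusted p = 2.05e-05). CREBBP, an acetyltransferase, was the 1 gene called higher there (0.10, edgeR adjusted p = 0.0353), and that call was lost under 6 of 19 alternatives. TET2, a DNA demethylation enzyme that WT1 can recruit, was 1 of the 2 genes higher in the combination than with MI-503 (0.24, edgeR adjusted p = 0.00231). The other was PIAS1, a SUMO ligase, whose call (0.13, edgeR adjusted p = 0.0363) was lost under 11 of 19 alternatives, the replicate block (0.11, edgeR adjusted p = 0.0694) among them. TET2 had fallen with MI-503 (−0.26, edgeR adjusted p = 0.000791) and was not called in the combination against DMSO (−0.01, edgeR adjusted p = 0.859).

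Genes described as targets of WT1 in other cells were followed in a list of 34, of which 23 were tested. With MI-503, 7 rose and 10 fell (median −0.13, against −0.03 over all genes), which is 30.4% and 43.5% of the list beside 22.0% and 29.3% of all genes. In the combination, 7 rose and 13 fell against DMSO (median −0.20, against 0.01), which is 30.4% and 56.5% beside 31.7% and 32.8%. Against MI-503, 3 rose and 9 fell in the combination (median −0.15, against 0.00), which is 13.04% and 39.1% beside 23.6% and 23.8%. Without combination replicate 2, 1 was called higher there in place of 3. EGR1, an immediate early zinc finger factor, fell from 16.9 ± 7.60 to 2.48 ± 1.09 CPM with MI-503 (log2 change −2.80, edgeR adjusted p = 9.38e-07), and CCN2, a matrix growth regulator, from 3.62 to 1.12 CPM (−1.68, edgeR adjusted p = 8.64e-06). MYC was at 656 ± 10.3, 495 ± 24.4 and 372 ± 13.7 CPM in the 3 groups and fell at each step, with log2 changes of −0.41 and −0.41 (edgeR adjusted p = 5.71e-07 and 1.88e-06). PODXL, which codes for podocalyxin of the podocyte surface, fell at each step as well (−0.49 and −0.62, edgeR adjusted p = 6.84e-05 and 3.50e-05). ODC1, the first enzyme of polyamine synthesis, fell with MI-503 (−0.84, edgeR adjusted p = 1.16e-06). TERT, the telomerase catalytic subunit, and BCL2, an inhibitor of apoptosis, were lower in the combination than with MI-503, by 1.55 and 0.72 on the log2 scale (edgeR adjusted p = 3.56e-06 and 5.40e-09). TGFB1, a growth factor gene, rose with MI-503 (0.44, edgeR adjusted p = 6.43e-07), as did RARA, a retinoic acid receptor (0.30, edgeR adjusted p = 0.00031). VEGFA, a vascular growth factor, rose with MI-503 (0.26, edgeR adjusted p = 0.000116) and in the combination against DMSO (0.46, edgeR adjusted p = 1.97e-07). IGF1R, a growth factor receptor, rose in the combination against DMSO (0.31, edgeR adjusted p = 0.000719). CTNNB1, or beta-catenin, fell with MI-503 (−0.23, edgeR adjusted p = 0.000175), a call held under all 19 alternatives. It was called higher in the combination than with MI-503 (0.12, edgeR adjusted p = 0.0393), a call lost under 12 of 19 alternatives, the replicate block (0.11, edgeR adjusted p = 0.0730) among them. Against DMSO it was lower in the combination (−0.11, edgeR adjusted p = 0.0330), a call lost under 8 of 19. MYB, a factor of blood progenitors at 384 CPM in DMSO, fell between MI-503 and the combination (−0.27, edgeR adjusted p = 0.00447). CDKN1A, a cell cycle inhibitor, fell with MI-503 and was higher in the combination than with MI-503 (−0.43 and 0.59, edgeR adjusted p = 3.08e-06 and 2.53e-07).

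**Figure D5:**
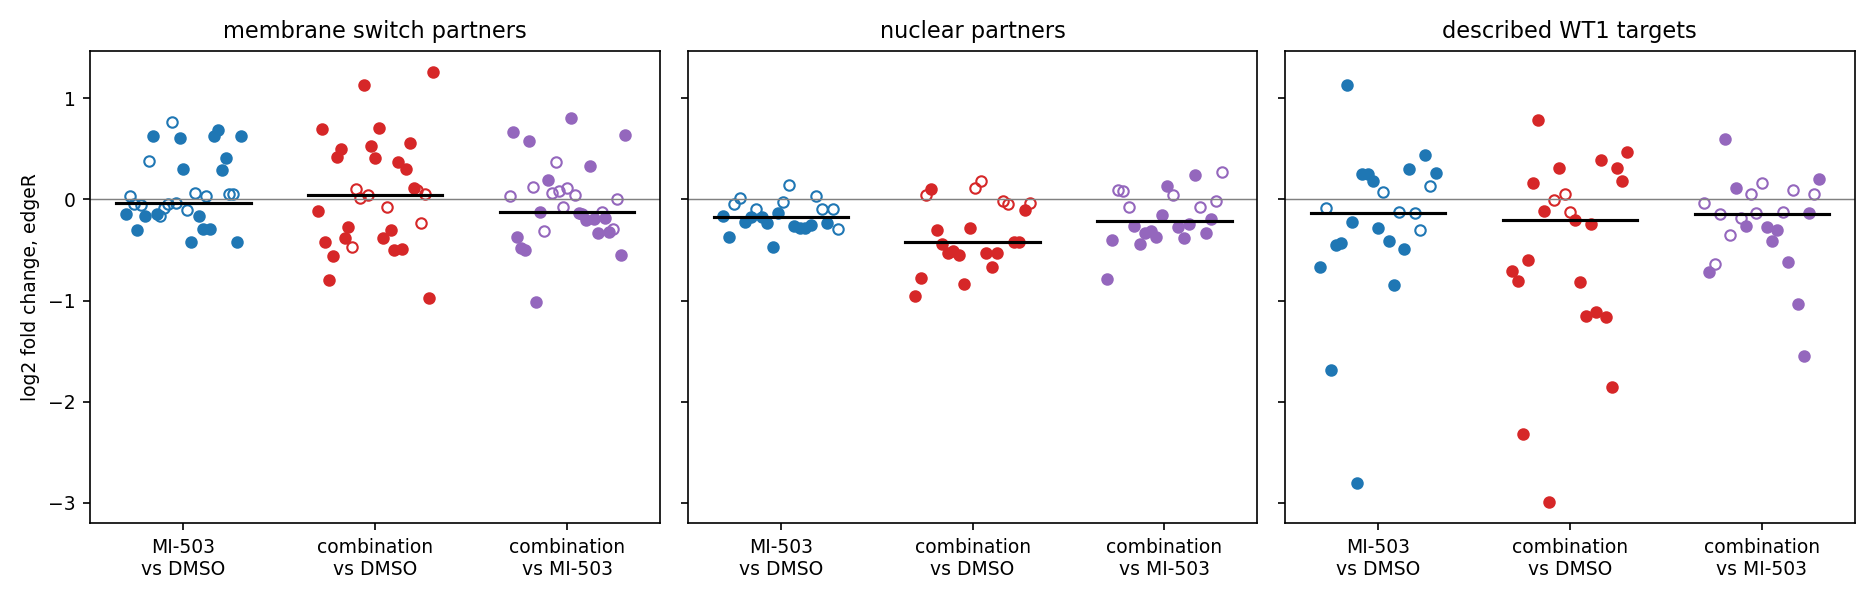
Log2 fold change (y axis, edgeR) of each tested gene of the 3 lists, in the 3 comparisons (x axis). Filled points are called genes, open points are not, and the black bar is the median. In the nuclear partners the median lies below 0 in each comparison, at −0.17, −0.42 and −0.22.

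Markers of the labelled cells were counted beside these values. The 11 leukemia and monocyte markers were all detected in each group. Their summed level was 1008 to 1092 CPM in DMSO, 1403 to 1448 with MI-503 and 1556 to 3516 in the combination. Much of the combination's sum was LYZ, at 95.1 ± 7.75, 375 ± 4.80 and 1640 ± 967 CPM in the 3 groups. In the combination LYZ ran from 599 to 2511 CPM. The rise of LYZ against MI-503 was larger without combination replicate 1 and was still called. CD14, a monocyte marker, had only 60 counts in all (0.251, 0.184 and 0.227 CPM) and did not pass the filter. Of the 10 tested, 7 rose and 3 fell with MI-503, which is 70% and 30% beside 22.0% and 29.3% of all genes. CSF1R and ITGAM, receptors of the monocyte lineage, rose with MI-503 as BASP1 and MARCKS did (log2 changes 2.43 and 1.27, edgeR adjusted p = 2.26e-12 and 3.12e-10), and LYZ, or lysozyme, rose by 1.98 with MI-503 (edgeR adjusted p = 1.04e-05). The 3 that fell were FLT3, a receptor kinase, and the homeobox genes HOXA9 and MEIS1 (−0.49, −0.36 and −1.37, edgeR adjusted p = 1.58e-06, 0.000393 and 1.52e-07). Between MI-503 and the combination 4 of the 10 rose and 2 fell, which is 40% and 20% beside 23.6% and 23.8% of all genes. The median log2 change of the 10 was 0.01 there, so the higher sum was not a rise of most of these markers. CSF1R, ITGAM and LYZ rose (0.67, 0.32 and 2.13, edgeR adjusted p = 1.06e-06, 0.0011 and 8.11e-06) where BASP1 and MARCKS fell (−0.33 and −0.86). SPI1 was also called higher (0.17, edgeR adjusted p = 0.0438), a call kept under 5 of 19 alternatives. The 2 that fell were FLT3 (−0.25, edgeR adjusted p = 0.00274) and MPO, or myeloperoxidase (−0.74, edgeR adjusted p = 4.67e-05). MPO had risen with MI-503 (0.92, edgeR adjusted p = 1.52e-06), as BASP1 and MARCKS did. The part of these markers in the changes of BASP1 and MARCKS was not tested. The 10 neuron markers summed to 8.80 to 10.3, 5.32 to 7.63 and 8.57 to 14.0 CPM, and MAP2, NEFL, NEFM, STMN2, SYT1 and DCX had at most 1 count each over the 11 libraries. The 4 tested, RBFOX3, SYP, SNAP25 and TUBB3, had 252, 284, 996 and 1032 counts in all. RBFOX3 and SNAP25 fell with MI-503 (−0.70 and −0.76, edgeR adjusted p = 0.0107 and 0.00287). SYP and TUBB3 rose between MI-503 and the combination (0.91 and 1.54, edgeR adjusted p = 0.00539 and 1.96e-05). The 8 markers of other cells summed to 48.8 to 59.0, 109 to 115 and 128 to 185 CPM, nearly all of it PECAM1. PECAM1 itself rose with MI-503 (1.12, edgeR adjusted p = 3.98e-08) and between MI-503 and the combination (0.56, edgeR adjusted p = 0.000107). A single line served for all libraries, and a contribution of other cells to this sum was not tested. NPHS1, a podocyte gene, had 7 counts in all.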

How the data were processed

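RNA of MOLM-13 cells had been made into libraries with a TruSeq kit and sequenced as read pairs. The deposited files give raw fragment counts for each gene, with no normalization, and its exon length. Per the file headers, the authors counted with featureCounts 2.0.1 on exons of the hg38 RefSeq annotation, without strand, leaving out fragments that aligned to several places or overlapped several genes. The submitters' processing notes also name Trimmomatic 0.39, STAR 2.7.10a and DESeq2. The headers show that alignments had been filtered by an unnamed rule. The deposited tables of the authors' own comparisons, with log2 fold changes and p-values, were not used.

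Groups followed the labels. Of 38557 genes, 14683 were kept by filterByExpr in edgeR (minimum count 10, minimum total 15). All 11 libraries entered 1 model with TMM factors (0.957 to 1.056, 8 residual degrees of freedom, biological coefficient of variation 6.14%), tested two-sided with edgeR 4.0.16 in R 4.3.3 and adjusted by Benjamini-Hochberg over all tested genes. Deviations from the group means correlated over 0.1 in each of the 3 same-numbered pairs of MI-503 and the combination (0.14 to 0.21). A differently numbered pair, MI-503 replicate 3 and combination replicate 4, correlated more (0.27). A pairing by number was thus not established by the data, and the labels do not state one. The main fit, which gave the p-values above, used no pairing, and a replicate block was an alternative. Same-numbered pairs of DMSO with MI-503 ran from −0.25 to 0.29 (4 pairs), and of DMSO with the combination from −0.06 to 0.11 (3 pairs). DESeq2 1.42.0 and limma-voom (limma 3.58.1) were alternatives. A prior count of 0.5 was used for log2 CPM, and a group at or under 3 counts was given no fold change. Depth of 18.9 to 41.2 M counts sets the counting error, and the number of replicates the rest. The scripts were tested on simulated data. Members and lists were chosen with earlier results of these data known. Named list genes were, per comparison, the 3 largest rises and falls among calls averaging 1 CPM or more, and per list the 2 highest genes. CSF1R, ITGAM, LYZ, FLT3, HOXA9, MEIS1, MPO, SPI1, CD14 and PECAM1 were chosen after their values were seen. Protein sequences were not analysed here. Start windows came from RefSeq. Some genes that the naming rules select, and some sequence, are not reported here.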

Additional observations from a re-analysis of the deposited data

Results flagged for a closer look

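Of 18 groups of 4 libraries checked for an outlying library, 1 was picked out. The ratio of WT1 to BASP1 per kilobase in DMSO had its lowest library, replicate 2, at 7.22, with the other DMSO libraries between 9.83 and 10.4. The gap took up 0.833 of the range of the group, above the critical value of 0.829. Chance picks out about 1 in 20 groups. In this library BASP1 was the highest of the 4 DMSO libraries, at 5.60 CPM from 122 counts, while WT1 was at 79.6 CPM, within the range of the others.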

How the results depend on the processing

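The 12 changes of BASP1, MARCKS, MARCKSL1 and WT1 were recomputed under 19 alternatives (other scaling factors, other filters, DESeq2, limma-voom, the compared groups alone, a replicate block and each library left out), 228 values in all, and each kept its direction and its call. The smallest change, BASP1 between the combination and MI-503, ranged from −0.45 without combination replicate 1 to −0.30, with adjusted p up to 0.0294. Of same-numbered pairs of libraries 6 of 10 had correlated deviations over 0.1, against 9 of 30 other pairs, and the own number correlated best in 9 of 20 checks. With the replicate block BASP1 changed by 2.06, 1.73 and −0.34 in MI-503 against DMSO, the combination against DMSO and the combination against MI-503, and no call of these 4 genes changed. Among named list genes the block ended the calls of PIAS1, CTNNB1 and TGFB1 (−0.11, edgeR adjusted p = 0.0749) between the combination and MI-503. It also ended that of CREBBP (0.10, edgeR adjusted p = 0.0670) in the combination against DMSO, and no other call. With upper-quartile factors WT1-AS lost its call with MI-503 (−0.21, adjusted p = 0.0531), and the share of higher genes among all calls with MI-503 moved from 42.9% to 54.2%. The number of nuclear partners called higher in the combination against DMSO ranged from 0 to 4. Of 87 called changes of named list genes, 76 held under all alternatives, 11 were lost under at least 1, and 0 reversed. Levels per kilobase moved by at most 4.13%. Depth limits GAP43 and BASP1-AS1, and no change could be detected for them or for BASP1P1. For BASP1P1, a copy of BASP1, leaving out fragments that aligned to several places is a limit as well.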
